A study of Mus musculus with 9 samples.

Results

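Therapeutic cells given in a matrix (ThTC) were compared with the matrix given alone (sECM only). The labels do not say how the cells were placed with the matrix. The comparison set the 3 ThTC libraries against the 3 sECM only libraries in every gene with 1 TPM or more in at least 3 of the 9 libraries of the study. TPM is an abundance per gene that takes account of transcript length and of the sum over the library. That rule kept 13829 of the 18639 entries in each file. All libraries were bulk RNA-seq of tumour tissue from the brains of mice carrying tumours of CT2A, a murine glioblastoma line, and were taken on day 5 after resection of the tumour. The sECM only group received the matrix without cells. The ThTC group received cells that secrete IFNβ and GM-CSF and that are CT2A cells themselves by the title of the series, so that their own RNA cannot be told apart from that of the tumour. Another group of 3 libraries, GFP-TC, received control cells, and its values are given beside the others. It shares the sECM only libraries as its control, so the ThTC and GFP-TC comparisons are not independent. The labels state no strain, age or cell dose and do not tie libraries to single animals. The p-values therefore speak only to the variation among these 9 libraries, which may be technical.

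Type I interferons such as IFNβ bind a receptor encoded by Ifnar1 and Ifnar2 and act through JAK kinases on genes whose promoters hold an element called ISRE. Interferon-gamma, made by T and NK cells, induces a partly shared set of genes, with GTPases and immunoproteasome subunits prominent among them. GM-CSF acts on myeloid cells through Csf2ra, Csf2rb and STAT5, while interleukin 4 and 13 act through STAT6 and set an alternative macrophage state.

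No gene passed an adjusted p of 0.05 for ThTC against sECM only, or 0% of those tested (limma on log2(TPM + 1), Benjamini-Hochberg over 13829 genes, smallest adjusted p = 0.27). A fit with sample quality weights called 2582 genes and one with a neuron score as covariate called 2, Retnlg and Hes1. The weights were estimated from these same libraries, with 3 in a group, so the count of 2582 is no independent result. Every gene named here other than Retnlg had an adjusted p of 0.69 or more in the unweighted fit of all libraries without a covariate, so higher and lower refer to means or to the order of libraries. Without adjustment, 954 genes (6.90%) had a p under 0.05, of which 213 (1.54%) had higher and 741 (5.36%) lower means with ThTC. The 3 ThTC values lay entirely above the 3 sECM only values for 695 genes (5.03%) and entirely below them for 1676 (12.1%), together 17.1%. Higher genes made up 22.3% of the genes with p under 0.05 and 29.3% of those without overlap as deposited, against 46.3% and 48.6% after median-of-ratios scaling and 42% and 41.2% after quantile scaling. These scalings moved the median log2 fold change of all genes, -0.03, by 0.035 and -0.01. Differences were small for most genes, with 6143 higher means (44.4%), 7686 lower means (55.6%), 63 genes at a log2 fold change of 1 or more and 25 at -1 or less. Leaving out ThTC 1 gave 1594 genes at p under 0.05, leaving out ThTC 2 gave 332 and leaving out ThTC 3 gave 529. Leaving out sECM only 2 gave 528 and leaving out sECM only 3 gave 394. The number without overlap, which can only grow with fewer libraries, was 5454 without ThTC 1, 4318 without ThTC 3 and 4317 without sECM only 1.

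The tissue pieces differed in their share of brain RNA within a group. The summed level of 20 neuron genes was 572, 929 and 3759 TPM in ThTC 1, 2 and 3 and 1164, 770 and 778 TPM in sECM only 1, 2 and 3, and that of 15 oligodendrocyte genes was 212, 758 and 2710.0 against 825, 390 and 541 TPM. ThTC 3 stood highest and ThTC 1 lowest in both lists, with the sECM only libraries between them. Median log2 fold changes were 0.40 for neuron genes, 0.47 for astrocyte genes and 0.45 for oligodendrocyte genes, without ThTC 3 they were -0.493, -0.154 and -0.382, and without ThTC 1 they were 1.108, 0.99 and 1.296. The part of brain RNA in the other results was not tested beyond leaving out libraries and the neuron score fit. In bulk tissue, fewer cells of a type and less RNA per cell cannot be told apart.

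**Figure D1:**
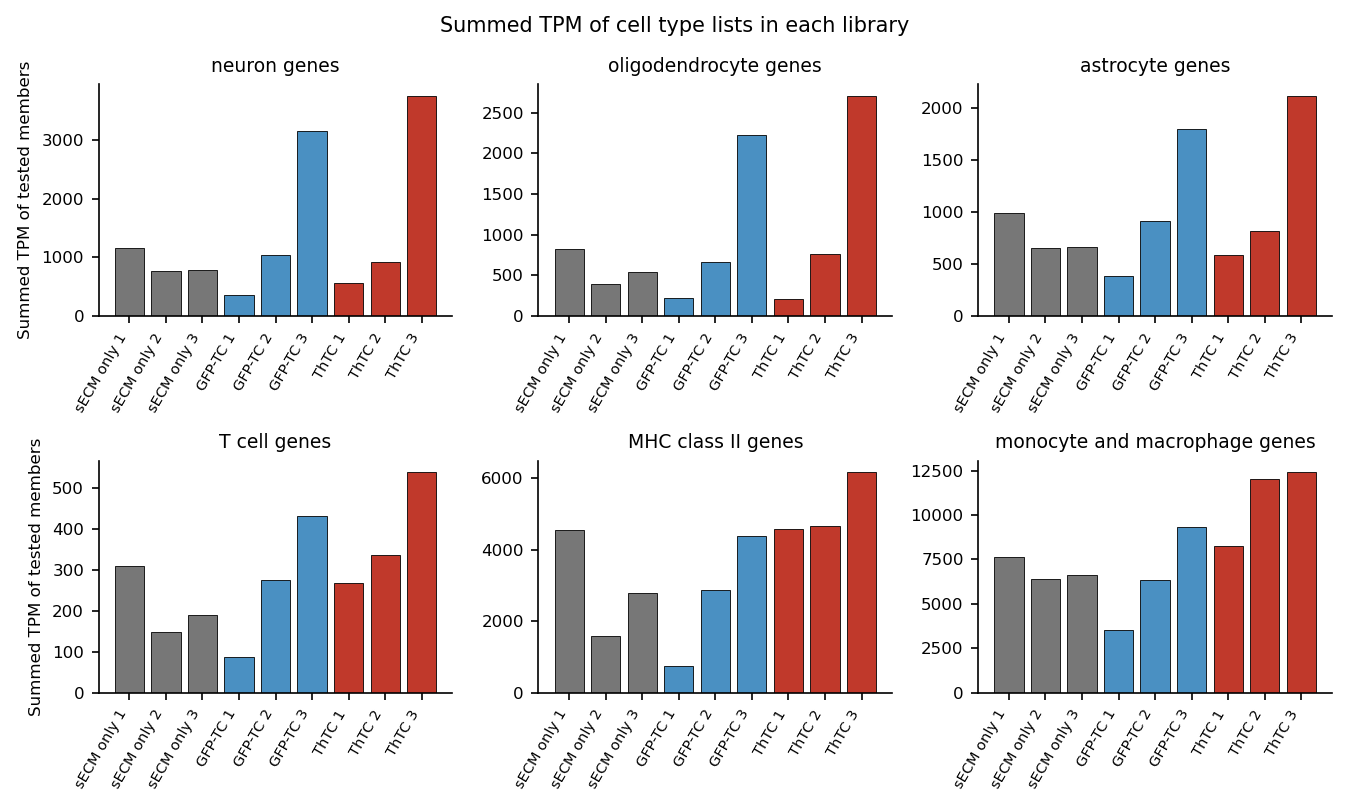
Each bar is the summed TPM (vertical axis, from 0) of the tested members of a cell type list in 1 of the 9 libraries, grey for sECM only, blue for GFP-TC and red for ThTC. ThTC 3 and GFP-TC 3 have the tallest bars for the brain lists, sECM only 1 is near the ThTC libraries for T cell and MHC class II genes, and all 3 ThTC bars are above the sECM only bars for monocyte and macrophage genes.

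The mouse genes of the secreted factors were near 0 everywhere. Ifnb1 was at 0.15, 0.14 and 0.16 TPM with ThTC and at 0, 0.15 and 0.33 TPM with sECM only (exact permutation p = 0.9, two-sided, where 3 against 3 cannot go below 0.1), and Csf2, the gene of GM-CSF, was at 0.13, 0.13 and 0.34 against 0.11, 0.33 and 0 TPM (exact permutation p = 0.5). Whether transgene transcripts would be counted under these entries is not stated. Of the receptor genes, Ifnar1 was at 43.1, 45.1 and 44.1 TPM with ThTC and 44.3, 42.5 and 51.3 TPM with sECM only, and Ifnar2 at 93.5, 116 and 104 against 97.1, 89.3 and 91.5 TPM. The GM-CSF receptor genes Csf2ra (40.2, 55.5 and 54.9 against 43.3, 34.2 and 40.7 TPM), Csf2rb (18.3, 22.1 and 28.7 against 18.8, 17.9 and 21.9 TPM) and Csf2rb2 (11.9, 16.6 and 18.9 against 13.1, 9.91 and 13.2 TPM) overlapped between the groups too. Ifngr1, a chain of the interferon-gamma receptor, did not overlap, by a margin in the second decimal, at 66.02, 62.4 and 67.2 against 59.8, 50.5 and 62.4 TPM, with a lowest ThTC value of 62.39 and a highest sECM only value of 62.38 TPM, whereas Ifngr2, its other chain, did, at 83.7, 89.4 and 102 against 81.97, 87.3 and 90.04 TPM. Ifng itself, the interferon-gamma gene, was at 4.37, 6.14 and 4.5 TPM with ThTC, each above the 3.22, 2.76 and 2.03 TPM with sECM only (log2 fold change 0.71, SE 0.30, limma adjusted p = 0.69). GFP-TC libraries had 1.55, 3.89 and 4.44 TPM of Ifng and so ran from below every sECM only library into the ThTC range. The 8 tested ligand and receptor genes had a median log2 fold change of 0.20, and 0.301 without ThTC 1. Downstream of the GM-CSF receptor, 0 of 17 JAK, STAT5 and SOCS genes had an unadjusted p under 0.05 (background 6.90%). In that list 1 higher (background 5.03%) and 1 lower member (background 12.1%) did not overlap, shares near or below those of all genes. The median of 0.06 changed sign with the libraries used: it was -0.035 without ThTC 3, 0.006 without sECM only 2, 0.097 without ThTC 2, 0.117 without ThTC 1 and 0.174 without sECM only 3. Socs1, a feedback inhibitor that interferons and STAT5 induce, was at 102, 130.14 and 151 against 103, 111 and 106 TPM, with ThTC 1 below every sECM only library. Pim1, a kinase gene and STAT5 target, was lower without overlap at 35.4, 33.3 and 35.4 against 42.2, 40.8 and 50.5 TPM, whereas Bcl2l1, an anti-apoptotic target, was higher without overlap at 91.4, 95.4 and 102 against 87.02, 83.4 and 89.1 TPM.

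Interferon-inducible genes had higher means with ThTC throughout the list. All 49 tested type I interferon genes were on that side, with a median log2 fold change of 0.42 against -0.03 for all genes, and 9 of the 49 had an unadjusted p under 0.05, all higher (background 1.54%). For 10 of them the groups did not overlap, all higher (background 5.03%). Without sECM only 2 the median was 0.238. The summed level of the 49 genes was 10114, 11365 and 11172 TPM in ThTC 1, 2 and 3. In sECM only 1, 2 and 3 it was 8493, 7013 and 10239 TPM, so sECM only 3 stood above ThTC 1. The lists were chosen with earlier results of these data known, and members of a list may vary together. Such counts of members are therefore no test of a list. Ifi27l2a, an interferon-inducible gene of a mitochondrial protein (chromosome 12, 103433873 to 103443680, GRCm38.p6, as are all positions here), was at 247, 285 and 286 TPM in the 3 ThTC libraries and at 192, 114 and 139 TPM with sECM only. It had the smallest p among higher genes named by the rule (log2 fold change 0.91, SE 0.18, unadjusted p = 0.000745, adjusted p = 0.69). Its GFP-TC values, 147, 122 and 142 TPM, lay within the sECM only range. Every ThTC library therefore stood above all 6 others for Ifi27l2a, by the values themselves.

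Irf7, Xaf1, Bst2, Isg15 and Ifit1 had smaller log2 fold changes than Ifi27l2a. Irf7, the transcription factor that amplifies interferon responses, was at 414, 463 and 470.16 against 332, 259 and 364 TPM (log2 fold change 0.50, SE 0.19), and at 265, 396 and 433 TPM with GFP-TC. Xaf1, an interferon-inducible pro-apoptotic gene, was at 79.04, 91.9 and 93.96 against 55.7, 44.1 and 67.1 TPM (log2 fold change 0.67, SE 0.22). Bst2, which encodes the virus-tethering protein tetherin, was at 1374, 1649 and 1322 against 1024, 955 and 1303 TPM, where the lowest ThTC library was just above the highest sECM only library. Irf7, Xaf1 and Bst2 did not overlap, and sECM only 3 was the matrix library nearest to the ThTC range in each. Isg15, a ubiquitin-like interferon marker, overlapped at 354, 408 and 417 against 246, 260.17 and 398 TPM, and so did Ifit1, an inhibitor of foreign RNA translation, at 149, 179 and 193 against 133, 119.76 and 215 TPM. In both genes sECM only 3 was the library inside the ThTC range or above it. The adjusted p of these 5 genes was between 0.69 and 0.82.

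The GTPase families that interferon-gamma induces strongly had higher means in every tested member. The median log2 fold change was 0.76 for the 10 guanylate-binding protein genes and 0.87 for the 10 immunity-related GTPase genes, with 4 and 7 members not overlapping, all higher (background 5.03%). In each family 1 of 10 members had an unadjusted p under 0.05, a share near the 6.90% of all genes (1.54% for higher genes alone). Gbp2b was at 1.69, 5.7 and 6.47 against 1.33, 0.42 and 0.8 TPM (log2 fold change 1.5, SE 0.48). Gbp2 was at 369, 729 and 627 against 306, 223 and 292 TPM (log2 fold change 1.03, SE 0.54). Both genes encode GTPases that attack membranes around intracellular pathogens. ThTC 1 was the lowest ThTC library in both, nearest to sECM only 1. Ifi47, an immunity-related GTPase gene, was at 159, 299 and 240.09 against 136, 102 and 147 TPM. Igtp, of the same family, was at 234, 448 and 413 against 191, 139.52 and 204 TPM. Iigp1 was at 173, 331 and 303 against 137, 85.5 and 148 TPM. The order of libraries was the same in these 3 genes, with ThTC 2 highest, ThTC 3 next and ThTC 1 closest to the sECM only group. GFP-TC libraries were spread more widely, from 90.2 TPM of Igtp in GFP-TC 1, below every sECM only library, to 342 TPM in GFP-TC 2. Members of these families are close copies, as are Tgtp1 and Tgtp2, and the sources used here do not say how the authors' counting split their reads.

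**Figure D2:**
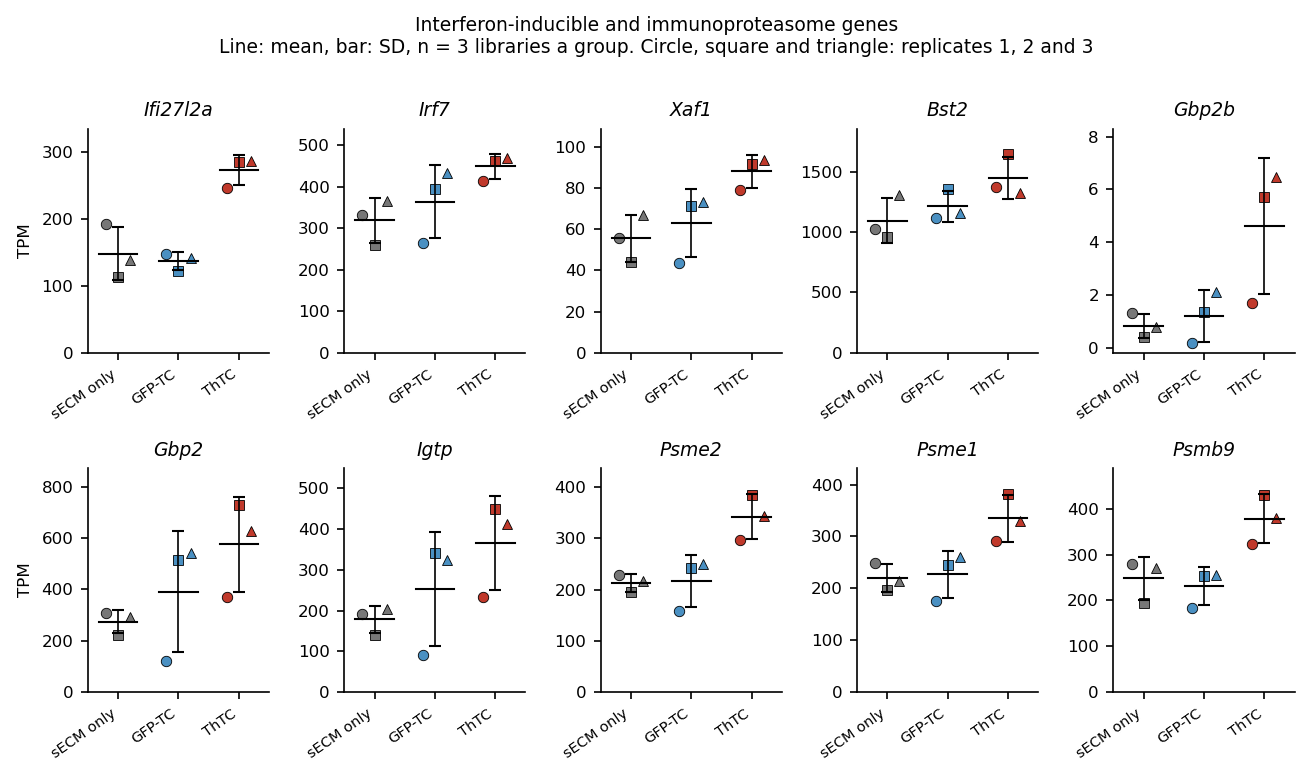
TPM (vertical axis, from 0) of 10 genes in the 9 libraries by group, with 1 point per library, the mean as a line and the SD as a bar. The 3 ThTC libraries lie above the 3 sECM only libraries in all 10 genes, while GFP-TC reaches into the ThTC range for Irf7, Bst2, Gbp2b, Gbp2 and Igtp.

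Promoters of these families often hold the letters of the interferon element, and a few are shown for genes whose groups did not overlap, with Isg15 as the standard example. In RefSeq windows of 300 bases (250 before and 50 after a gene's start, GRCm38.p6), the motif GAAA, any 2 bases, GAAA on either strand, which reads TTTC, any 2 bases, TTTC on the other, was present for 17 of 37 type I interferon genes with a window (45.9%), 5 of 5 guanylate-binding protein genes and 5 of 6 immunity-related GTPase genes. It was present for 437 of 10790 tested genes with a window (4.05%). Capitals mark the bases of a match, overlapping matches included, and 20 bases are given on each side, 5′ to 3′ on the gene's strand:
Isg15 (chr4:156200855-156200916, minus strand): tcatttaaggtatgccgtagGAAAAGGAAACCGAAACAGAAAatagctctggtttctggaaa
Bst2 (chr8:71537567-71537622, minus strand): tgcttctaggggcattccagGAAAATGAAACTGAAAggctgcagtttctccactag
Ifi211 (chr1:173913054-173913103, minus strand): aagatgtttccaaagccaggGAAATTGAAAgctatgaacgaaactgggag
Gbp2b (chr3:142594690-142594739, plus strand): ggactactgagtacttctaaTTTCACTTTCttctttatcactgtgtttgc
Gbp2 (chr3:142620584-142620633, plus strand): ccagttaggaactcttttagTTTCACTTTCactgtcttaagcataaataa
Gbp3 (chr3:142559979-142560034, plus strand): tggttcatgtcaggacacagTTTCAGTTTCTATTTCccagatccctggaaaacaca
Igtp (chr11:58199502-58199551, plus strand): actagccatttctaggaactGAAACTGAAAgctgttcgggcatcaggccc
Irgm2 (chr11:58214893-58214942, plus strand): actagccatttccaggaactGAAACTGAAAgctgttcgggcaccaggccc
Tgtp1 (chr11:48992294-48992343, minus strand): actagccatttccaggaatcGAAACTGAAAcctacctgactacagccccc
A match is a description of these letters and shows no binding. Matches of these genes were counted only where at least 20 bases lie between a match and the gene's start. By that count Isg15 holds 3 overlapping matches, Bst2 and Gbp3 hold 2 each, and the others hold 1 each. Irgm2, Tgtp1 and Ifi211 were chosen for display after their values were seen. Irgm2 was at 103, 187 and 167 against 90.8, 59.7 and 99.1 TPM and Tgtp1 at 72.03, 153 and 124 against 57.6, 30.02 and 47.9 TPM, both without overlap. Gbp3 was at 229, 336 and 286 against 178, 125 and 209 TPM. Ifi211, of a DNA-sensing gene family, was at 168, 219 and 201 against 136, 119 and 165 TPM. The motif was found for 2 of 11 peptide loading and immunoproteasome genes, 18.2%.

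Genes that prepare peptides for MHC class I had higher means with ThTC, apart from chaperones. Of 13 peptide loading and immunoproteasome genes, 10 had higher means, 8 did not overlap, all higher (background 5.03%), and 5 had an unadjusted p under 0.05, all higher (background 1.54%), and the list median was 0.56. Psme2 was at 297, 385 and 344 TPM with ThTC and 229, 195 and 216 TPM with sECM only (log2 fold change 0.67, SE 0.18, unadjusted p = 0.005), and Psme1, which encodes the other subunit of the proteasome activator PA28, at 292, 382 and 329.97 against 248, 196 and 214 TPM (log2 fold change 0.60, SE 0.17). Psmb9 was at 324, 431 and 380.24 against 279.88, 194 and 269.87 TPM and Psmb8 at 449, 592 and 479.65 against 389, 274 and 347 TPM, both catalytic subunits that replace those of the standard proteasome. In all 4 genes ThTC 2 was highest and ThTC 1 the lowest of the ThTC libraries, above every sECM only library. The GFP-TC values of Psme2, 158, 243 and 249 TPM, ran from below to just above those of sECM only. The 3 members with lower means, Calr (1142, 1315 and 1234 against 1330.3, 1291 and 1460.0 TPM), Canx and Pdia3, encode folding chaperones of the endoplasmic reticulum and were named after their values were seen. Canx was at 352, 332 and 329 against 344, 377 and 433 TPM. Pdia3 was at 583, 646 and 580.26 against 590.08, 623 and 659.98 TPM. Adjusted p was 0.69 or more for each of these genes.

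Among 14 MHC class I genes 13 had higher means, with a median of 0.14 that was 0.069 without ThTC 2. The classical heavy chain gene H2-K1 was at 2937, 3378 and 2837 against 2876, 2402 and 2848 TPM and the light chain gene B2m at 8239, 9709 and 7705 against 8434, 7356 and 7475 TPM, overlapping in both. The 2 that did not overlap, H2-T23 and H2-T22, both higher (background 5.03%), are non-classical. H2-T23, which encodes the ligand Qa-1 of an inhibitory NK receptor, was at 277, 398 and 389 against 228, 160.14 and 215 TPM (log2 fold change 0.82, SE 0.32). H2-T22, a close copy of H2-T10, was at 659, 731 and 579.89 against 575, 428 and 546 TPM. For MHC class II, 11 of 11 genes had higher means with a median of 0.76, 3 did not overlap (background 5.03%) and 0 had an unadjusted p under 0.05 (background 6.90%). H2-Aa was at 655, 631 and 879 against 694, 176 and 355 TPM. Cd74, its invariant chain, was at 1916, 1793 and 2564 against 1945, 536 and 1134 TPM. sECM only 1 was within the ThTC range for both, while sECM only 2 had the lowest level of the 6 libraries. Ly6a, the interferon-inducible surface protein Sca-1, was at 250.44, 454 and 413 against 199.87, 97.2 and 149.9 TPM (log2 fold change 1.33, SE 0.48). Apol10b, of the interferon-responsive apolipoprotein L family, was at 6.02, 7.94 and 8.34 against 4.09, 1.36 and 4.03 TPM. Calhm6, an interferon-gamma-inducible channel gene of macrophages, was at 12.2, 20.2 and 19.4 against 9.56, 5.09 and 6.75 TPM.

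Within the Schlafen genes, another interferon-responsive family, 6 of 8 had higher means and the members split. Slfn2 was at 61.3, 68.99 and 92.8 against 46.99, 39.5 and 49.5 TPM and Slfn1 at 24.2, 27.2 and 28.6 against 15.2, 12.5 and 17.2 TPM, both higher without overlap. Slfn3 was lower without overlap, at 19.9, 17.1 and 18.4 against 19.96, 22.5 and 23.7 TPM (log2 fold change -0.24, SE 0.11), though ThTC 1 and sECM only 1 were nearly equal. These genes lie in a cluster of close copies.

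T cell genes had one of the highest list medians, with wide spread inside the sECM only group. Of 22 T cell genes 21 had higher means with a median of 0.83, 12 did not overlap, all higher (background 5.03%), and 2 had an unadjusted p under 0.05, both higher (background 1.54%). Cd3e, a signalling chain of the T cell receptor, was at 12.3, 11.6 and 13.2 TPM with ThTC and 12.5, 2.69 and 4.27 TPM with sECM only, and Cd8a, the co-receptor of cytotoxic T cells, at 12.6, 12.3 and 15.2 against 15.2, 2.29 and 5.58 TPM. sECM only 1 was inside the ThTC range for both, and sECM only 2 and 3 were well below it. Icos, a costimulatory receptor of activated T cells, was at 4.66, 3.63 and 4.63 against 1.9, 1.34 and 1.84 TPM (log2 fold change 0.98, SE 0.39), with 0.32, 2.47 and 2.93 TPM in GFP-TC. Sh2d1a, the adaptor SAP, was at 2, 1.7 and 2.29 against 1.55, 0.39 and 0.21 TPM. Neither Icos nor Sh2d1a overlapped, and for Icos sECM only 1 was close to the other matrix libraries.

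All 28 cytotoxic granule and NK cell genes had higher means with ThTC, with a median of 0.59 that was 0.353 without sECM only 2. Of these, 12 did not overlap (background 5.03%) and 4 had an unadjusted p under 0.05 (background 1.54%). Their summed level was 958, 1689 and 1194 TPM in ThTC 1, 2 and 3. In sECM only 1, 2 and 3 it was 1238, 555 and 1012 TPM, so sECM only 1 stood above ThTC 1 and ThTC 3. Gzmk, a granzyme of memory-type T cells, was at 2.12, 2.61 and 1.83 against 1.02, 0.73 and 1.13 TPM and at 0.14, 0.49 and 0.66 TPM with GFP-TC, so that no pair of the 3 groups overlapped, with ThTC highest and GFP-TC lowest. Gzmb, the main granzyme of killer cells, was at 83.7, 255 and 126 against 75.1, 32.6 and 87.8 TPM, where ThTC 1 lay below sECM only 3. Serpinb9, which protects cells from granzyme B, was at 19.4, 28.6 and 30.3 against 17.3, 12.3 and 18.6 TPM, and the chemokine gene Xcl1, with overlap, at 11.2, 6.94 and 9.27 against 7.92, 4.2 and 5.15 TPM. The chemokine gene Cxcl9, which recruits T cells and which interferon-gamma induces, was at 65.2, 107 and 140.15 against 48.6, 25.3 and 40.9 TPM (log2 fold change 1.40, SE 0.62), without overlap. Cxcl10, a chemokine that both interferon types induce, overlapped at 318, 429 and 593 against 304, 305 and 454 TPM.

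Checkpoint genes pointed both ways. Of 18 members 15 had higher means, with a median of 0.58 (0.342 without sECM only 2), but both members with an unadjusted p under 0.05 were lower (background 5.36%). Pdcd1, which encodes PD-1, was at 11.2, 7.71 and 11.8 against 6.52, 1.52 and 5.08 TPM, without overlap, and its ligand gene Cd274 at 30.9, 48.9 and 60.6 against 28.1, 19.9 and 38.7 TPM, with overlap. Pdcd1lg2, which encodes the other ligand PD-L2, was lower at 1.66, 1.52 and 1.78 against 3.58, 2.68 and 7.16 TPM (log2 fold change -0.96, SE 0.41), as was Cd276, the B7-H3 gene of tumour and stromal cells, at 39.5, 31.6 and 36.1 against 46.7, 51.2 and 49.8 TPM (log2 fold change -0.46, SE 0.10, unadjusted p = 0.00116). Cd276 values were tight in both groups, and GFP-TC, at 45.6, 47.2 and 47.8 TPM, was near sECM only. The regulatory T cell list had 7 of 10 members higher with 0 at an unadjusted p under 0.05 (background 6.90%). Il2ra, the interleukin 2 receptor chain of regulatory and activated T cells, was at 4.17, 5.12 and 5.72 against 2.41, 2.23 and 2.22 TPM, without overlap.

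Monocyte and macrophage genes formed the other broadly higher group. Of 27 members 25 had higher means with a median of 0.54, 12 did not overlap, all higher (background 5.03%). At an unadjusted p under 0.05 there were 5 higher (background 1.54%) and 2 lower (background 5.36%). Lyz2, the lysozyme gene of macrophages and neutrophils (chromosome 10, 117277541 to 117282272), was at 694, 1499.6 and 914 TPM with ThTC and 569.7, 540.16 and 362 TPM with sECM only (log2 fold change 1.03, SE 0.30, unadjusted p = 0.00862). Tyrobp, the signalling adaptor DAP12, was at 399, 622 and 562 against 341, 262 and 249 TPM (log2 fold change 0.88, SE 0.26). Trem2, a lipid-sensing receptor that signals through it, was at 69.4, 108 and 128 against 68.7, 58 and 42.2 TPM. Neither Lyz2, Tyrobp nor Trem2 overlapped, although the lowest ThTC value of Trem2 was almost equal to the highest of sECM only. Plac8, a gene of monocytes newly come from blood, was at 94.3, 133 and 107 against 64.3, 57.3 and 73.6 TPM. Ly6c2, the marker of inflammatory monocytes, was at 169, 209 and 183 against 135, 97.9 and 79.3 TPM. Fcgr1, the high-affinity Fc receptor gene that interferon-gamma induces, was at 45.8, 76.01 and 79.3 against 41.96, 30.1 and 37.1 TPM. Lineage markers of macrophages at large overlapped: Cd68 was at 196, 383 and 296 against 211, 192 and 184 TPM and Adgre1, the F4/80 gene, at 50.04, 52.3 and 69.7 against 52.6, 38.02 and 58.6 TPM.

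The MS4A genes, several of which are expressed in monocytes and macrophages, were higher in most members. Among 9 MS4A family genes 8 had higher means with a median of 0.70, and the 4 with an unadjusted p under 0.05 were all higher (background 1.54%) and without overlap (background 5.03%). Ms4a6b was at 40.97, 63.9 and 49.01 against 28.1, 17.6 and 27.6 TPM (log2 fold change 1.05, SE 0.24, unadjusted p = 0.00199). Ms4a6c was at 78.1, 106 and 97.8 against 55.6, 40.7 and 65.3 TPM. Ms4a4c was at 42.97, 50.4 and 51.6 against 28.3, 23.8 and 36.4 TPM. Apoc2, a lipoprotein lipase cofactor gene that macrophages express, was at 25.9, 60.5 and 27.9 against 17.5, 12.2 and 10.6 TPM (log2 fold change 1.36, SE 0.34), with ThTC 2 highest. Cd36, a scavenger receptor gene, was at 4.58, 17.8 and 10.5 against 4.13, 3.02 and 1.89 TPM. F13a1, the coagulation factor gene of monocytes and macrophages, was at 3.31, 13.9 and 7.68 against 2.19, 2.88 and 3.02 TPM. In both of these ThTC 1 was only just above sECM only, and ThTC 2 was highest. Tspo, a mitochondrial protein gene that is high in activated myeloid cells, was at 332, 373 and 336 against 289, 248 and 242 TPM (log2 fold change 0.42, SE 0.10), a small but tight difference. Of 18 complement genes 16 had higher means, with a median of 0.50 and 6 without overlap, all higher (background 5.03%). At an unadjusted p under 0.05 there was 1, also higher (background 1.54%, or 6.90% for both directions together). Their summed level in ThTC 1, 3222 TPM, was below that in sECM only 1, 3267 TPM. C1qb was at 972, 1324 and 1490.4 against 962, 733 and 856 TPM, and the C5a receptor gene C5ar1 at 16.6, 31.97 and 24.2 against 15.7, 9.8 and 13.6 TPM. The 16 microglia genes had a median of 0.46 that was 0.202 without ThTC 3, the library richest in brain RNA, and 0.734 without ThTC 1. None of them, or 0, had an unadjusted p under 0.05 (background 6.90%). Their summed level in ThTC 1, 1510 TPM, was below the 1773, 1624 and 1558 TPM of the sECM only libraries. Tmem119, a marker gene of microglia, overlapped at 53.1, 76.95 and 96.8 against 59.1, 44.2 and 50.7 TPM.

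A separate set of myeloid genes was lower with ThTC and held the 6 most negative log2 fold changes of all 13829 genes: Ccl24, Retnlg, Ear2, Rnase2a, Retnla and Mgl2. Retnlg, of the resistin-like family and expressed by neutrophils among other myeloid cells (chromosome 16, 48872608 to 48874498), was at 1.53, 0.55 and 0.82 TPM in ThTC 1, 2 and 3 and at 23.5, 8.28 and 16.9 TPM in sECM only 1, 2 and 3. That is a log2 fold change of -3.05 (SE 0.36, unadjusted p = 1.96e-05), with the smallest adjusted p of all genes, 0.27. Ccl24, an eosinophil chemokine of alternatively activated macrophages, was at 5.41, 0.48 and 0.4 against 6.21, 38.1 and 38.8 TPM (log2 fold change -3.24, SE 0.83). Ear2, a ribonuclease gene of eosinophils and macrophages, was at 2.69, 0.61 and 0.34 against 3.44, 16.9 and 27.5 TPM (log2 fold change -2.72, SE 0.67). In Ccl24 and Ear2 sECM only 1 was only slightly above ThTC 1, and the distance came from sECM only 2 and 3. Retnlg differed from them in that sECM only 1 was its highest library.

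The rest of this set were genes of the interleukin 4 and STAT6 programme or of eosinophils. Mgl2, a C-type lectin gene, was at 8.66, 0.69 and 3.96 against 10.6, 25.5 and 21.2 TPM. Alox15, a lipoxygenase gene, was at 0.22, 0.21 and 0.21 against 3.79, 1.65 and 2.41 TPM (log2 fold change -1.53, SE 0.25, unadjusted p = 0.000237). Retnla, a hallmark of alternative activation, was at 0.19 TPM in ThTC 1 and listed at 0 in ThTC 2 and 3, against 1.41, 2.81 and 12.2 TPM. Rnase2a, an eosinophil ribonuclease gene and close copy of the Ear genes, was at 0.16 TPM in ThTC 2 and listed at 0 in ThTC 1 and 3, against 1.19, 7.5 and 8.99 TPM. Its adjusted p was 0.69 with every library and 0.034 without sECM only 1. The chemokine genes Ccl17 (3.25, 1.13 and 2.5 against 3.37, 8.15 and 9.22 TPM) and Ccl11 (1.42, 1.57 and 1.31 against 2.31, 9.02 and 5.08 TPM) were lower without overlap as well, while Mrc1, the mannose receptor gene, was at 8.76, 2.98 and 4.15 against 8.35, 12.9 and 18.4 TPM and overlapped through ThTC 1. Within 18 alternative macrophage genes, then, 5 were lower (background 5.36%) and 2 higher (background 1.54%) at an unadjusted p under 0.05, and the median was 0.33, on the other side from its largest members. It was 0.568 without ThTC 1, 0.124 without ThTC 2 and 0.167 without sECM only 1. Higher means were found for 11 of the 18. Chil3, another gene of that programme, was at 19.9, 40.96 and 8.75 against 3.28, 17.4 and 15.96 TPM and did not follow the lower genes. Arg1, also of this list, overlapped at 125, 181 and 60.9 against 77.3, 178 and 198 TPM. Of 11 eosinophil, mast cell and basophil genes 3 did not overlap, Alox15, Ear2 and Rnase2a, all lower (background 12.1%), and the other 8 did. At an unadjusted p under 0.05 there were 3, all lower (background 5.36%). The median of that list was -0.27, and it ranged from -0.973 (sECM only 2 left out) and -0.949 (ThTC 3 left out) through -0.076 (sECM only 1 left out) to 0.187 (ThTC 2 left out) and 0.199 (sECM only 3 left out).

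GFP-TC libraries were below every sECM only library for most of these genes, but not for Ccl11, at 1.56, 5.13 and 0.82 TPM, where GFP-TC 2 was above sECM only 1 and 3. Retnlg was at 0.78, 0.44 and 0.45 TPM with GFP-TC, Ccl24 at 0.17, 2.3 and 0.29 TPM, Ear2 at 0.16, 0.91 and 0.55 TPM and Alox15 at 0.35, 0.54 and 0.4 TPM, and Retnla and Rnase2a were listed at 0 in all 3 GFP-TC libraries. The log2 fold change against sECM only was -3.37 for Retnlg with GFP-TC (limma adjusted p = 0.13) beside -3.05 with ThTC, and -3.71 beside -3.24 for Ccl24. Retnlg, Ccl24, Ear2, Alox15, Retnla and Rnase2a were thus lower in every library with cells than in every library without them, in comparisons that share the 3 sECM only libraries. Neutrophil genes as a list had 8 of 12 members higher with ThTC. Without overlap, 1 member was higher, S100a9 (background 5.03%), and 2 were lower, Retnlg and Mmp9 (background 12.1%). At an unadjusted p under 0.05 there were 1 higher (background 1.54%) and 1 lower (background 5.36%). S100a9, a calprotectin subunit gene of neutrophils, was at 1.6, 3.1 and 1.97 against 0.24, 0.24 and 0.52 TPM. Its GFP-TC values were 1.64, 0.79 and 2.92 TPM. Mmp9 was at 14.3, 10.98 and 13.8 against 15.65, 16.3 and 24.1 TPM.

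**Figure D3:**
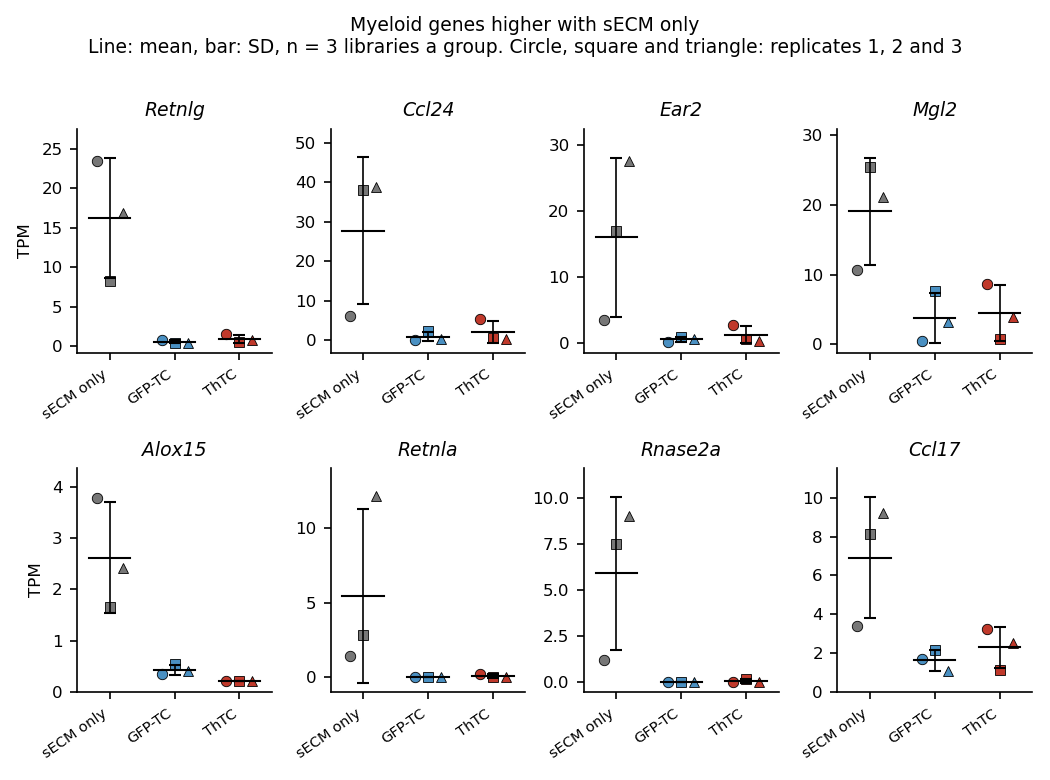
TPM (vertical axis, linear) of 8 myeloid genes in the 9 libraries by group, with 1 point per library, the mean as a line and the SD as a bar. The sECM only libraries lie above all ThTC libraries in each gene, with a wide spread among themselves, and above all GFP-TC libraries too.

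Retnlg and Retnla sit near each other on chromosome 16 and are copies of one family, and stretches of their RefSeq promoter windows (GRCm38.p6) are shown because both were lower with ThTC. Compared without gaps at an offset of 73 bases, 148 of 227 bases were identical (65.2%). The motif TTC, any 4 bases, GAA, a spacing that STAT6 prefers and the same on both strands, was present in both windows. Counted only where at least 20 bases lie between a match and the gene's start, each held 1 match. The motif was present in 6.64% of tested genes with a window. It was present for 1 of 12 alternative macrophage genes with a window (8.33%), a share near that of all genes, and for 8 of 37 type I interferon genes (21.6%). Capitals mark it:
Retnlg (chr16:48872516-48872565, plus strand): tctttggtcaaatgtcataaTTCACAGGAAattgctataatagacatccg
Retnla (chr16:48842444-48842493, plus strand): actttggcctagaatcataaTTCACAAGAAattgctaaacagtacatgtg
The match lies 72 bases before the start of Retnlg and 145 before that of Retnla. The division of reads between the 2 genes is unknown.

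Notch pathway genes were lower with ThTC among those that differed. Of 22 members 16 had lower means with a median of -0.15, 5 had an unadjusted p under 0.05 (background 5.36%) and 4 did not overlap (background 12.1%), all lower. The median was -0.041 without ThTC 1 and -0.063 without sECM only 3. Notch3, the Notch receptor of pericytes and smooth muscle (chromosome 17, 32120820 to 32166896), was at 5.05, 5.07 and 5.22 TPM with ThTC and 9.46, 10.1 and 9.4 TPM with sECM only (log2 fold change -0.80, SE 0.12, unadjusted p = 0.000156). Hes1, a transcriptional repressor that Notch induces (chromosome 16, 30065357 to 30067796), was at 103, 93.03 and 82.3 against 154, 157 and 147 TPM (log2 fold change -0.72, SE 0.13, unadjusted p = 0.000432). The libraries of each group lay close together for both genes, and the groups were far apart in relation to that spread. GFP-TC was at 8.46, 9.62 and 9.83 TPM for Notch3, near sECM only, and at 142, 125 and 102 TPM for Hes1, from within the ThTC range to just below sECM only. Jag1, a Notch ligand gene, was at 48.5, 44.2 and 37.9 against 50.98, 67.1 and 74.2 TPM (log2 fold change -0.54, SE 0.15). Notch1 (13.8, 12.4 and 18.04 against 19.3, 19.7 and 33.1 TPM) and the target gene Hey1 (30.6, 26.8 and 43.7 against 43.5, 44.2 and 50.2 TPM) completed the 5 and were named after their values were seen.

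Mural cell genes other than Notch3 were mixed. The list of 15 pericyte and smooth muscle genes, which includes Notch3, had 7 higher and 8 lower means. Its members at an unadjusted p under 0.05 were 1 higher (background 1.54%) and 3 lower (background 5.36%). The groups did not overlap for 2 higher (background 5.03%) and 3 lower members (background 12.1%). Pdgfrb, the PDGF receptor gene expressed by pericytes, was at 34.6, 31.9 and 32.02 against 46.9, 53.1 and 63.1 TPM (log2 fold change -0.70, SE 0.13, unadjusted p = 0.000656), with 48.2, 63.5 and 57.2 TPM in GFP-TC. Acta2, the smooth muscle actin gene, was on the other side at 19.4, 48.2 and 31.3 against 16.8, 18.8 and 11.97 TPM (log2 fold change 0.94, SE 0.36). Rgs5, also of this list, overlapped at 4.41, 7.97 and 15.82 against 7.79, 8.5 and 7.2 TPM (log2 fold change 0.08, SE 0.47). Across 15 pericyte and smooth muscle genes the median was -0.20, and it was 0.042 when ThTC 1 was left out, -0.353 when ThTC 3 was, -0.037 when sECM only 1 was and -0.127 when sECM only 2 was. Cdh15, a cadherin gene known from muscle precursors, had one of the smallest p values, at 32.6, 25.1 and 26.4 against 48.5, 46.4 and 62.5 TPM (log2 fold change -0.88, SE 0.14). Of 20 endothelial genes 0 had an unadjusted p under 0.05 (background 6.90%).

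Most matrix genes shared the lower side. Of 26 fibroblast and matrix genes 18 had lower means with a median of -0.28, 9 did not overlap on the lower side (background 12.1%) and 7 had an unadjusted p under 0.05, all lower (background 5.36%). The median was -0.174 without ThTC 3 and -0.188 without sECM only 3. Chains of collagen VI, a microfibrillar collagen, were among them: Col6a1 was at 309, 243 and 266 against 369, 386 and 494 TPM (log2 fold change -0.60, SE 0.15). Col6a2 was at 258, 187 and 223 against 303, 328 and 419 TPM. Col6a3 was at 14.6, 12.1 and 12.5 against 16.9, 25.2 and 39.98 TPM. In all 3 sECM only 3 was highest. Col18a1, the basement membrane collagen that gives rise to endostatin, was at 408, 365 and 333 against 509, 612 and 621 TPM (log2 fold change -0.65, SE 0.13, unadjusted p = 0.00101). Sfrp4, a secreted Wnt antagonist gene, was at 22.4, 25.6 and 12.8 against 42.6, 73.9 and 51.3 TPM (log2 fold change -1.44, SE 0.34). Postn, a matricellular protein gene, was at 51.97, 64.2 and 22.4 against 78.7, 141 and 97.5 TPM (log2 fold change -1.26, SE 0.44). ThTC 3 was the lowest library in both, and GFP-TC reached 155 TPM of Postn, above every sECM only library. The interstitial matrix gene Fn1 overlapped at 154, 165 and 143 against 149, 185 and 261 TPM. Col1a1, a collagen gene of the same list, overlapped too, at 24.7, 78.6 and 21.8 against 26.95, 31.1 and 44.7 TPM (log2 fold change 0.06, SE 0.43). Omd, a small proteoglycan gene of bone matrix, was higher at 7.67, 13.8 and 5.43 against 3.66, 3.59 and 3.13 TPM.

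**Figure D4:**
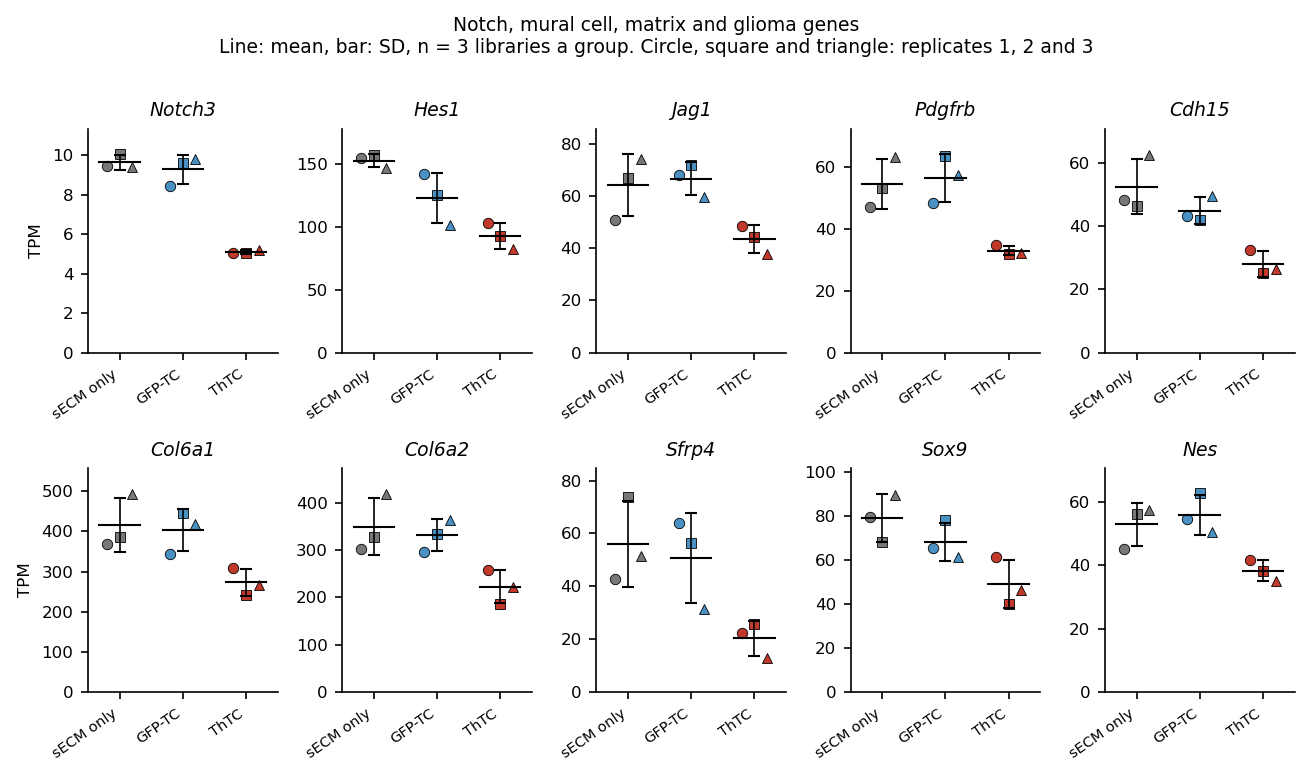
TPM (vertical axis, from 0) of 10 Notch, mural cell, matrix and glioma genes in the 9 libraries by group, with 1 point per library, the mean as a line and the SD as a bar. The 3 ThTC libraries lie below the 3 sECM only libraries in each gene, and the GFP-TC libraries lie above the ThTC libraries except 1 library for Hes1.

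Of 18 glioma state genes 6 did not overlap on the lower side (background 12.1%) and 1 on the higher side (background 5.03%). Neural progenitor and glioma genes were detected in every library. Sox9, a transcription factor of glial progenitors, was at 61.1, 39.9 and 46.4 against 79.3, 67.9 and 89.7 TPM (log2 fold change -0.69, SE 0.17). Nes, the gene of the neural progenitor filament nestin, was at 41.8, 38.2 and 35.1 against 45.1, 56.4 and 57.5 TPM (log2 fold change -0.45, SE 0.13). Sox2, a neural stem cell factor, was at 157, 141 and 117 against 179.93, 211 and 199 TPM. These 3 and Bmi1, a Polycomb gene of stem cell self-renewal at 72.7, 64.6 and 63.5 against 74.7, 76.9 and 85.1 TPM, were the 4 of 18 glioma state genes with an unadjusted p under 0.05, all lower (background 5.36%). The list median was -0.18, and -0.117 without sECM only 3. Cd44, a mesenchymal state marker, overlapped at 211, 179.53 and 177 against 201, 207 and 253 TPM. The sECM only libraries thus held more RNA of these 4 progenitor genes relative to the library sum. The share of tumour cells in each piece was not tested.

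Among 30 cell cycle genes 26 had lower means with a median of -0.22 (-0.112 without ThTC 3), and the 5 with an unadjusted p under 0.05 were lower (background 5.36%). The groups did not overlap for 4 of the 30, all lower, a share near the background of 12.1%. Cdt1, which licenses replication origins, was at 112, 93.6 and 90.6 against 123, 121 and 129.76 TPM (log2 fold change -0.34, SE 0.09). E2f1, the S phase transcription factor gene, was at 96.4, 78.7 and 78.2 against 107, 98.2 and 103 TPM. Mcm3, of the replicative helicase, was at 121, 99.8 and 98.3 against 124, 123 and 132 TPM. ThTC 1 was close to the sECM only range in each. The proliferation marker Mki67 overlapped at 48.9, 38.4 and 35.4 against 41.1, 49.8 and 64.9 TPM. Of 21 cholesterol synthesis genes 19 had lower means and 3 did not overlap, all lower (background 12.1%), with a median of -0.23 that was -0.133 without ThTC 2 and -0.405 without ThTC 1. Srebf2, their master regulator, was the 1 with an unadjusted p under 0.05 (background 5.36% lower), at 127, 97.6 and 117 against 152, 128 and 150.43 TPM. The p53 and cell death list had 11 of 22 members on each side. Trp53, the p53 gene, was lower at 418, 347 and 322 against 455, 430.44 and 439.86 TPM (log2 fold change -0.29, SE 0.10), and Fas, a death receptor gene and target of p53 and interferon, was higher at 3.65, 4.95 and 7.07 against 2.59, 1.03 and 3.1 TPM (log2 fold change 0.97, SE 0.36). Bax, a pro-apoptotic gene, was higher at 189, 187 and 177 against 162, 155 and 161 TPM.

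Further genes were named for their p or their log2 fold change. Higher with ThTC and without overlap were Ptpn18, Insl6, Ang, Dnajc15, Susd3 and Ppp1ccb. Ptpn18, a tyrosine phosphatase gene, was at 37.7, 42.96 and 43.6 against 32.1, 26 and 24.3 TPM (log2 fold change 0.58, SE 0.13). Insl6, of the relaxin family, was at 133, 167 and 135 against 116, 85.6 and 98.7 TPM. Ang, the ribonuclease angiogenin, whose locus overlaps that of Rnase4, was at 14.4, 17.4 and 19.1 against 11.5, 9.93 and 10.1 TPM. Dnajc15, a mitochondrial co-chaperone gene, was at 34.05, 42.6 and 47.4 against 28.8, 28.2 and 23.8 TPM. Susd3 was at 10.4, 10.5 and 13.5 against 7.62, 4.71 and 3.32 TPM. Ppp1ccb, a close copy of the phosphatase gene Ppp1cc, was at 7.08, 7.76 and 10.2 against 6.03, 3.72 and 0 TPM. The value of 0 for Ppp1ccb in sECM only 3 widened its difference. Lower with ThTC and without overlap were Scgb3a1, Nrep, Gab1, Prdm1 and Hspa1b. Scgb3a1, a secretoglobin gene, was at 2.12, 2.96 and 3.3 against 6.72, 8.44 and 7.09 TPM. Nrep was at 139, 108 and 118 against 167, 201 and 195 TPM. Gab1, a docking protein gene of growth factor receptors, was at 20.3, 19.1 and 22.03 against 27.8, 28.7 and 28.6 TPM. Prdm1, which encodes the lymphocyte regulator Blimp-1, was at 12.99, 12.4 and 10.96 against 21.4, 18.1 and 33.1 TPM. Hspa1b, an inducible heat shock gene nearly identical to Hspa1a, was at 12.4, 15.4 and 13.8 against 34.2, 41.2 and 67.1 TPM, but at 109, 106 and 18.6 TPM in GFP-TC. Each of these genes had an adjusted p of 0.69 or more.

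**Figure D5:**
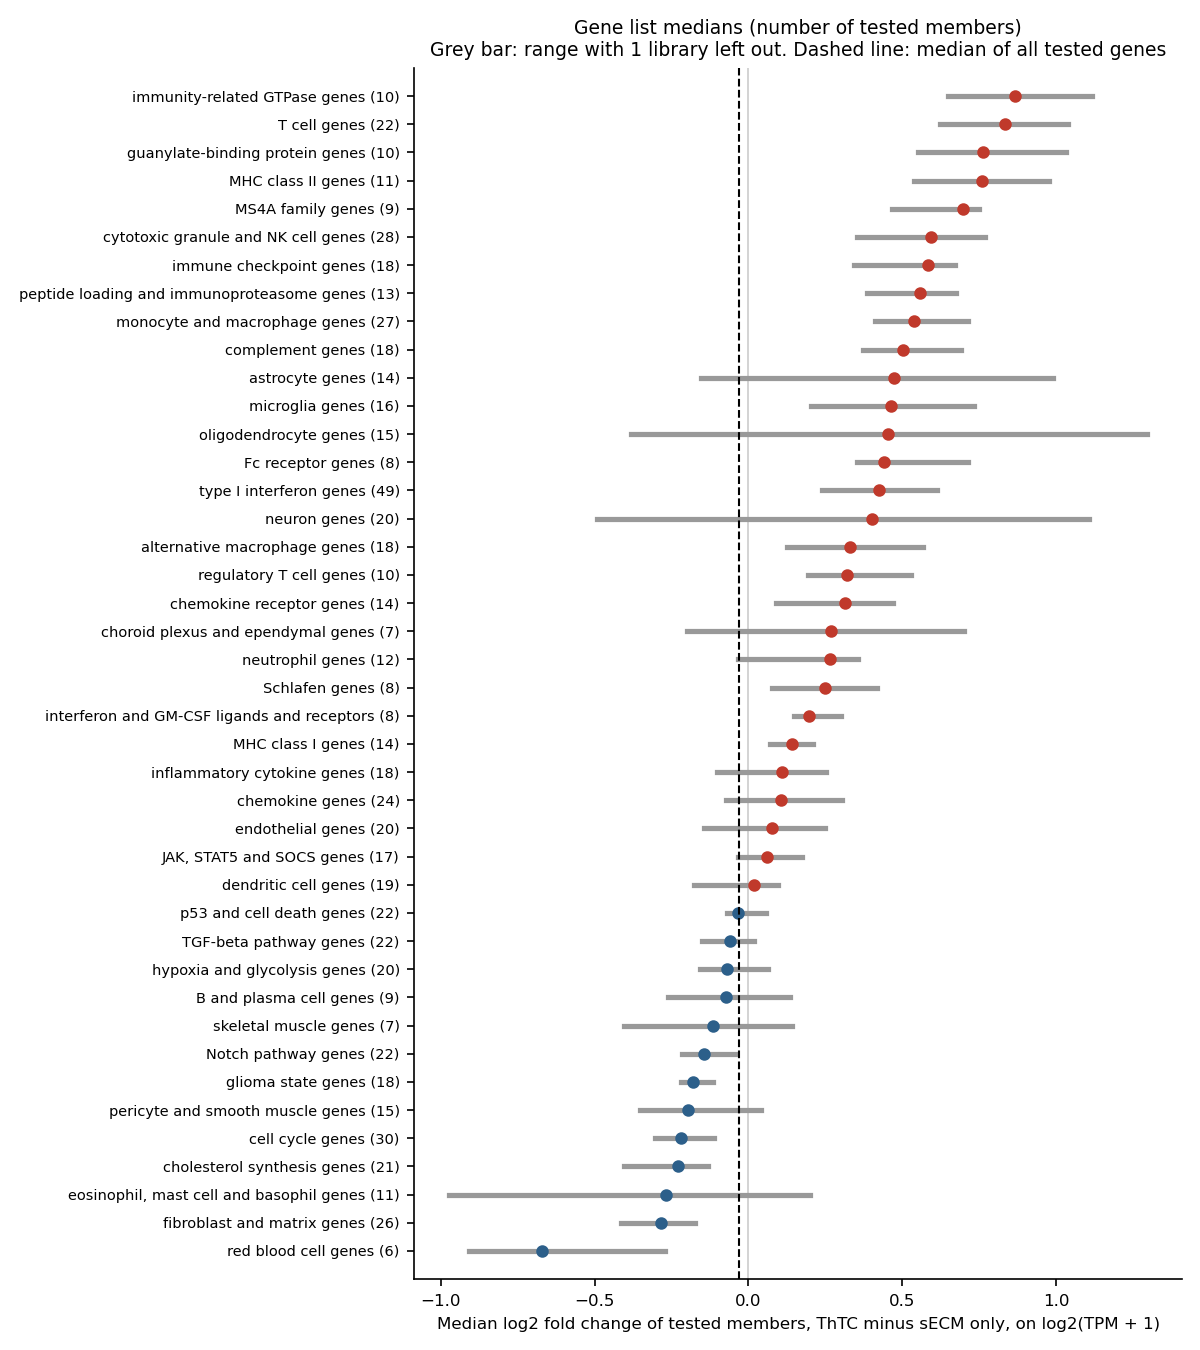
Median log2 fold change (horizontal axis, ThTC minus sECM only on log2(TPM + 1)) of the tested members of 42 gene lists, with the range when 1 library is left out as a grey bar and the median of all tested genes, -0.03, as a dashed line. The immunity-related GTPase, T cell, guanylate-binding protein and MHC class II lists have the highest medians, the red blood cell list the lowest, and the oligodendrocyte and neuron lists the widest bars.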

How the data were processed

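Bulk RNA-seq was run on 9 libraries, 3 each of sECM only, GFP-TC and ThTC. The labels give RNA extraction with a Qiagen RNeasy kit, sequencing on a BGI DNBseq machine and 4.47 Gb of bases per sample, and the submitters' processing notes name HISAT, GRCm38.p6 and mm10 without versions or roles. The authors deposited TPM per gene, and which tool made these values is not given in the sources used here. Such values keep no depth, so the counting error of a value is unknown and no count model was used. An entry listed at 0 may be a failed estimate.

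The test was limma 3.58.1 (R 4.3.3) for genes reaching 1 TPM in 3 or more libraries, on log2(TPM + 1), with all 9 libraries in 1 fit, an intensity trend and Benjamini-Hochberg adjustment over 13829 genes. Log2 fold changes are ThTC minus sECM only on that scale, which understates differences of low genes. SE is limma's moderated standard error. Ifnb1 and Csf2, below the filter, had an exact permutation test. No overlap means that all 3 values of a group lie above all 3 of the other. Tables and figures were made with Python 3.11.15, pandas 2.3.3, numpy 2.4.6 and matplotlib 3.10.9, and the model was tested on simulated data.

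Members and lists were chosen with earlier results of these data known. Genes were named by a rule: up to 10 per direction with the smallest p among those of 5 TPM or more without overlap, the 10 largest log2 fold changes per direction with p under 0.05, members of the 42 lists (from the first 3 and the 3 of smallest p), and the secreted factors with their receptors. Genes outside it are said to be so, and a few items are not reported here. Gene positions and promoter windows are from RefSeq, GRCm38.p6. Alternatives were the pseudocount, the filter, scaling, weights, the trend, a neuron score covariate, the 6 libraries alone, a replicate block and leaving out each library.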

Additional observations from a re-analysis of the deposited data

How the results depend on the processing

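No result rested on a call, since 0 genes passed. Among alternatives, sample quality weights, estimated from the same libraries, called 2582 genes. The neuron score covariate called 2, and leaving out 1 library called 0 to 1 (Rnase2a, without sECM only 1). At an unadjusted p under 0.05 the count of 954 was 5116 with weights, 1656 with the covariate and 332 to 1594 without 1 library. The count without overlap, 2371, was 2799 to 5454 without 1 library, where fewer values overlap less by construction. The cause of the other shifts was not tested. Of 588 refits of the 42 list medians 585 stayed within 1 pooled SD of the list's score between libraries of a group. That count does not measure stability. Refits such as the replicate blocks cannot move a median by design, and leaving out 1 library can hardly move it so far. The neuron median of 0.403 counted as within this spread, 1.31, at -0.493 without ThTC 3. The neutrophil median of 0.265 was -0.008 with a mean TPM of 5 or more and -0.033 to 0.357 without 1 library, and the skeletal muscle median of -0.115 was -0.512 with a pseudocount of 0.1. Of 2194 refits of 130 of the genes tested and named, 2191 kept their direction. Refits such as the replicate blocks and the fit without the trend leave a log2 fold change as it was by design. Leaving out a library cannot reverse a gene without overlap, so this count does not measure stability either. Ifnar1 was reversed with weights, at 0.01, and ranged from -0.11 to 0.02 without 1 library, and Pdia3 was reversed with weights, at 0.05. The unknown depth limits every gene of few TPM.

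With the replicate number as a block, 0 genes were called with 6 or 9 libraries, and 1068 and 895 had an unadjusted p under 0.05. Deviations of same-numbered ThTC and sECM only libraries correlated at -0.55, 0.28 and -0.21 across genes, so the numbers were not taken as pairs.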

Other observations

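Other gene lists gave these counts for ThTC against sECM only (backgrounds at an unadjusted p under 0.05 were 1.54% higher and 5.36% lower). Of the Fc receptor genes, 7 of 8 had higher means, and at an unadjusted limma p under 0.05 there were 1 higher and 0 lower. By the same counts, higher means were found for 13 of 24 chemokine genes (2 higher and 3 lower), 9 of 14 chemokine receptor genes (0 higher and 2 lower), 10 of 18 inflammatory cytokine genes (0 higher and 1 lower) and 11 of 19 dendritic cell genes (1 higher and 3 lower). Among the rest, they were found for 4 of 9 B and plasma cell genes (0 higher and 1 lower), 9 of 22 TGF-beta pathway genes (0 higher and 2 lower), 7 of 20 hypoxia and glycolysis genes (0 higher and 0 lower), 6 of 7 choroid plexus and ependymal genes (0 higher and 1 lower), 1 of 6 red blood cell genes (0 higher and 0 lower) and 2 of 7 skeletal muscle genes (0 higher and 1 lower). The lists themselves were not tested.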
